A study of Mus musculus with 2 samples.

Results

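The 8 protein kinase C genes Prkca, Prkcb, Prkcd, Prkce, Prkch, Prkcq, Prkci and Prkcz were described in polyadenylated RNA from the mouse hippocampus. They were chosen by name, together with all of their 55 annotated transcripts, out of 55536 genes and 141862 transcripts in the tables. The rule goes by name and uses no measured value. The material was hippocampal tissue from adult mice of strain B6NCrl at 6 months, described as C57BL/6 males in one label while the sex field reads not collected. All samples were in 1 group of 2 libraries, called replicate 1 and replicate 2 here after their labelled biological replicate numbers. Both carry the same donor identifier and separate biosample identifiers, and the labels do not say whether they came from separate animals, so the spread between them may be technical. Each library was made from 20 ng of RNA by Nextera tagmentation. No treatment or second genotype was included, so levels are described, no condition was tested and no p-value is given.

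Protein kinase C enzymes are serine and threonine kinases that are held inactive by their own amino-terminal regulatory part. Conventional members (Prkca, Prkcb) are opened by calcium and diacylglycerol, the new members (Prkcd, Prkce, Prkch, Prkcq) by diacylglycerol without calcium, and the atypical members (Prkci, Prkcz) by protein partners instead. In neurons, Prkcz is known for a second product, PKM-zeta, which is transcribed from a start site inside the gene. PKM-zeta consists of the kinase domain without the regulatory part, so it needs no second messenger, and it has been studied in the maintenance of long-term potentiation in the hippocampus. Other members of this kinase family are not analysed here, so every share of the family below is a share of these 8 genes only.

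The annotation places Prkcz on the minus strand of chr4:155260129-155361361 of the mm10 assembly. The full-length transcript Prkcz-201 has 18 exons and encodes 592 amino acids. The short transcript Prkcz-202 has 15 exons and encodes 409 amino acids. Its first exon of 323 bases lies inside the gene at chr4:155345450-155345772. The 4 exons of Prkcz-201 that precede the first shared exon, 473 bases in all, are missing from it, and 13 exons are identical in both. Its coding sequence begins at codon 184 of the full-length one and runs to the same stop, so 183 codons are absent from the short form. The spliced coding sequence around that codon is shown for both forms on the minus strand of mm10, at chr4:155293198-155294299 across 1 intron, because the start codon of the short form, in capitals, is an internal codon of the full-length form.
Prkcz-201: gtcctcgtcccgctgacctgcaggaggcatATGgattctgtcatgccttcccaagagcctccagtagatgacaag
Prkcz-202: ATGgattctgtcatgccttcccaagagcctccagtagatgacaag

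The region before each start site is shown because the forms differ in where transcription begins. RefSeq (GRCm38.p6, the same assembly as mm10) gives promoter windows for 6 of the 8 genes, all but Prkce and Prkch, and a window of 300 bases for each of 3 Prkcz start sites. The window printed first lies on the minus strand at chr4:155361428-155361678 and ends at a start site 67 bases upstream of Prkcz-201. The one printed next lies on the minus strand at chr4:155345789-155346039 and ends at a start site 17 bases upstream of Prkcz-202. In both, the 251 bases up to and including the start site are given, and capitals mark every match on either strand to the cyclic AMP response element TGACGTCA, the CCAAT box, the hexamer GGGCGG known as the GC box, or the TATA box letters TATAAA.
Prkcz full-length start: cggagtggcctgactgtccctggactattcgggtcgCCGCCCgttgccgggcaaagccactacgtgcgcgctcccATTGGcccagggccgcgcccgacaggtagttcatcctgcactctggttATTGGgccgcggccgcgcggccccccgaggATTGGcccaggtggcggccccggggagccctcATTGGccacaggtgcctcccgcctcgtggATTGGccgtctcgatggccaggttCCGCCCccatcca
Prkcz internal start: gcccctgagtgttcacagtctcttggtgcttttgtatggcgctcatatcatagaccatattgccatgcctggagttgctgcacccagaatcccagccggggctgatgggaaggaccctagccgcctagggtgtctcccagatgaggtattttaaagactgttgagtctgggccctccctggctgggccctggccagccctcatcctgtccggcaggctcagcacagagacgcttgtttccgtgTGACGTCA

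Over its 300 bases the full-length window held 5 CCAAT matches, 3 GC boxes and 71% G and C. The internal window held 1 match to TGACGTCA, 59.3% G and C, and none of the other 3 motifs. With the start site counted as 0, that match covers positions -7 to 0. The last of the 3 windows has its start site inside the gene, downstream of the start of Prkcz-202, and held 2 overlapping GC boxes. Of 32851 RefSeq windows of the same length, 1.79% hold TGACGTCA, 37.4% hold CCAAT, 35.7% hold GGGCGG and 13.6% hold TATAAA. The windows found for Prkca, Prkcb, Prkcd, Prkcq and Prkci held no match to TGACGTCA. These matches describe letters and were not tested as binding sites.

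Levels were compared between genes in TPM, which scales reads for transcript length and depth, from the gene tables of the first of 2 quantification programs. Prkcb was the highest of the 8 genes at 117.77 TPM in replicate 1 and 114.1 TPM in replicate 2. Prkcz followed at 82.15 and 73.93 TPM. Prkce stood at 49.56 and 70.44 TPM. These 3 genes held 82.5% of the summed TPM of the 8.

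**Figure D1:**
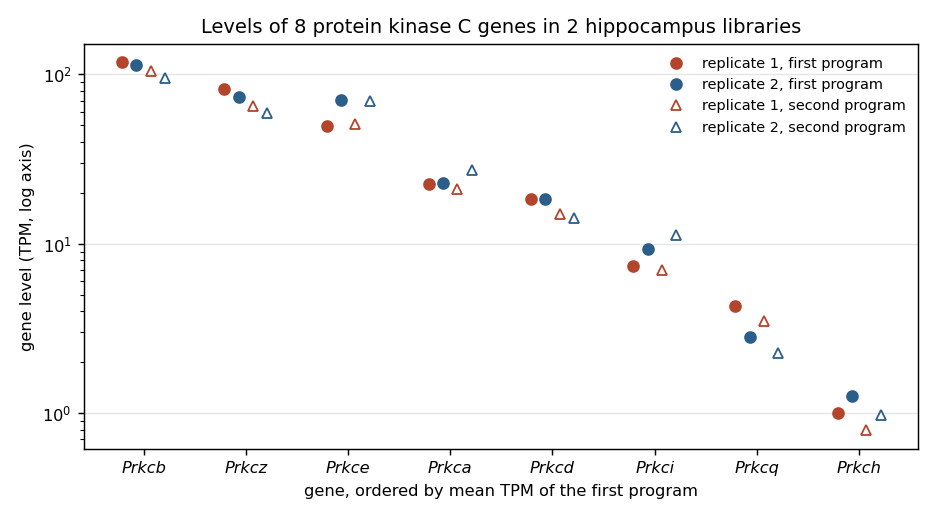
Gene level in TPM on a log axis (vertical) for each of the 8 genes (horizontal, highest mean on the left), with replicate 1 in red and replicate 2 in blue; filled circles are the first program and open triangles the second, each symbol being 1 library. In the first program, levels span 1.00 TPM for Prkch to 117.77 TPM for Prkcb, both in replicate 1, and the libraries differ by the most TPM at Prkce (49.56 in replicate 1, 70.44 in replicate 2).

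Among the conventional genes, Prkcb (chr7:122288751-122634402, plus strand), known in mice to be needed for fear conditioning, carried 37.7% ± 1.72 of the summed TPM of the 8 genes (SD, n = 2). Prkca (chr11:107933387-108343928, minus strand), the other calcium-dependent member analysed, had 22.41 and 22.74 TPM and carried 7.33% ± 0.0957 (SD, n = 2). Prkcb was above Prkca in both libraries. The conventional genes together made up 46.3% of the summed TPM in replicate 1 and 43.7% in replicate 2.

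Among the new members, Prkce (chr17:86167785-86657919, plus strand), a kinase known from presynaptic terminals, carried 19.4% ± 4.34 of the summed TPM (SD, n = 2). Prkcd (chr14:30595354-30626210, minus strand), known for its part in apoptosis, had 18.33 and 18.43 TPM, a share of 5.97% ± 0.117 (SD, n = 2). Prkcq (chr2:11172108-11301222, plus strand), known for its role in T cell receptor signalling, had 4.29 and 2.83 TPM, and Prkch (chr12:73584796-73778185, plus strand), best known from epithelia, had 1.00 and 1.26 TPM. Their shares were 1.16% ± 0.362 and 0.366% ± 0.0511 (SD, n = 2 each). Prkch rested on 103 and 133 expected reads and was the lowest of the 8, with 97.7% of the 14356 genes of at least 1 TPM above it. The 4 new genes together made up 24.2% and 29.7% of the summed TPM in replicates 1 and 2.

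Among the atypical genes, Prkcz carried 25.4% ± 2.48 of the summed TPM (SD, n = 2), and 13.0% of the 14356 genes had a higher mean TPM. Prkci (chr3:30995747-31052959, plus strand), the kinase of the Par polarity complex, had 7.38 and 9.35 TPM, a share of 2.71% ± 0.389 (SD, n = 2). Prkcz was above Prkci in both libraries. The atypical genes together made up 29.6% and 26.6% of the summed TPM, above the new genes in replicate 1 and below them in replicate 2. With complete coding transcripts only, a measure added after the data were seen, the atypical genes made up 25.2% and 23.9% and the new genes 33.4% and 32.5%.

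On this scale no neighbours in the order Prkcb, Prkcz, Prkce, Prkca, Prkcd, Prkci, Prkcq, Prkch overlapped between the libraries. In the second program, Prkcz had 65.2 TPM in replicate 1 and 59.0 TPM in replicate 2, and Prkce had 50.7 and 69.9 TPM, so these neighbours overlapped. No other neighbours overlapped in the second program. The order also depended on the measure. Per expected read, which is not per length, Prkce came first with 28.9% ± 2.27 of the reads of the 8 genes, Prkcb had 25.02% ± 0.847 and Prkcz 19.9% ± 0.579 (SD, n = 2 each). In bulk tissue, fewer cells of a type and less RNA per cell cannot be told apart.

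The short form made up most of the complete Prkcz coding transcripts in both libraries and both programs. In the first program, Prkcz-202 had 41.14 TPM in replicate 1 and 41.21 TPM in replicate 2, and Prkcz-201 had 6.29 and 2.94 TPM. The short form was therefore 86.7% and 93.3% of the TPM of complete coding transcripts, or 90.04% ± 4.67 (SD, n = 2). In the second program, Prkcz-202 had 29.3 and 28.5 TPM, and Prkcz-201 had 9.31 and 7.83 TPM. The short share there was 75.9% and 78.4%, or 77.2% ± 1.78 (SD, n = 2). The levels of the 2 forms did not overlap in either program, and the shares of the 2 programs did not overlap.

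The level of the short form differed less between the libraries than that of the full-length form. The authors' deposited bounds for Prkcz-201 ran between 4.38 and 7.80 TPM in replicate 1 and between 1.47 and 3.94 TPM in replicate 2. Those for Prkcz-202 ran between 38.05 and 41.1 TPM and between 38.4 and 41.2 TPM. These bounds belong to a posterior mean, so the TPM value itself can lie outside them. Prkcz-201 rested on 478 and 228 expected reads and Prkcz-202 on 4930 and 5042 in the first program.

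What separates the forms in the annotation bears on these values. Prkcz-202 has 1915 bases that Prkcz-201 lacks, of which 1592 lie at the end of its last exon. Prkcz-202 is the 1 transcript of the 10 that reaches into those bases, so reads there can be given to no full-length model. Prkcz-201 has 473 bases of its own against Prkcz-202, all upstream. How much the unequal last exons move the split was not tested.

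Another Prkcz transcript took a large part of the TPM of the gene. Prkcz-209 is a processed transcript of 790 bases without a coding sequence, annotated at chr4:155262100-155268335, and had 32.51 and 27.26 TPM in the first program. In the second program it had 23.2 and 19.1 TPM. It shares 718 of its bases with both coding forms and has 72 of its own. Its reads were 633 and 549, against 6076 and 5861 for the gene. With every Prkcz transcript in the denominator, the short form was 50.1% and 55.7% of the TPM of the gene.

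**Figure D2:**
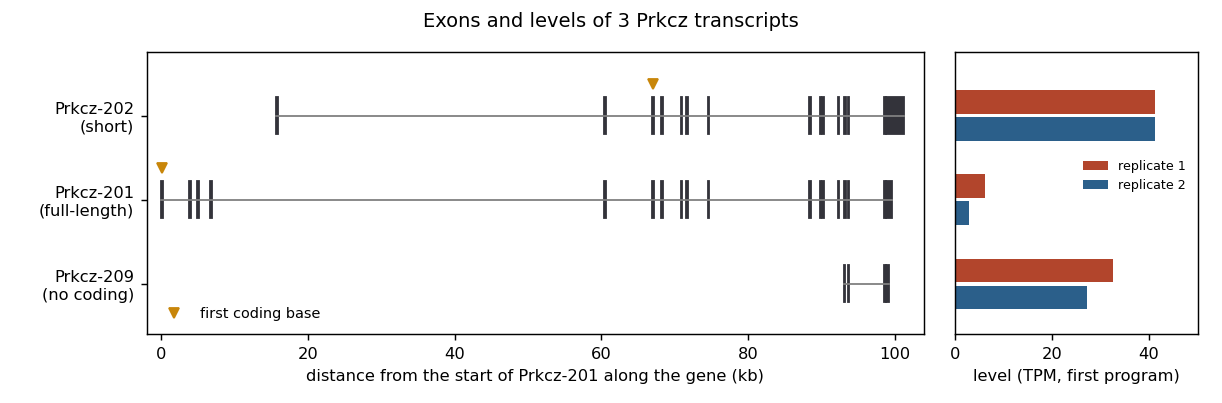
Left, exons (boxes) and introns (lines) of 3 Prkcz transcripts along the gene, with distance from the start of Prkcz-201 in kb on the horizontal axis and triangles at the first coding base; the narrowest exons are widened to stay visible. Right, the level of each transcript in TPM of the first program, replicate 1 in red and replicate 2 in blue: 41.14 and 41.21 TPM for Prkcz-202, 6.29 and 2.94 TPM for Prkcz-201, and 32.51 and 27.26 TPM for Prkcz-209.

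The other 7 Prkcz transcripts were low. Prkcz-204 and Prkcz-206 are annotated with incomplete coding sequences and start just downstream of the internal first exon. The coding sequence of Prkcz-204 begins at the same start codon as that of Prkcz-202. Prkcz-204 had 1.28 and 1.5 TPM, and Prkcz-206 had 0.83 and 0.81 TPM. Prkcz-207 had 0.10 and 0.21 TPM. Prkcz-203, Prkcz-205, Prkcz-208 and Prkcz-210 were listed at 0 in the first program in both libraries. Prkcz-203, which encodes 96 amino acids from the full-length start codon, and Prkcz-205 were also at 0 in the second program, where Prkcz-208 had 0.50 and 0.28 TPM and Prkcz-210 0.24 and 0.08 TPM. Of the 10 transcripts, 2 start upstream of the internal first exon, Prkcz-201 and Prkcz-203.

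Prkcz has a near-identical copy. The processed pseudogene Prkcz2 (chr7:27882755-27884510, minus strand) matches Prkcz-201 over 1755 bases at 98.6% identity and Prkcz-202 over 1427 bases at 98.5%. It was given 37.1 and 44 reads in replicates 1 and 2 by the first program and 32.3 and 22.4 by the second. Reads could be split between the copies in the authors' counting, and the reads given to Prkcz2 do not bound how many were misplaced. The longer match to Prkcz-201 reaches into bases that Prkcz-202 lacks. Prkcz-201 rested on 478 and 228 expected reads in the first program, so the uncertainty weighs more on the full-length form. How far it moves the short share was not tested.

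Prkcb is known for 2 proteins, PKC beta II and PKC beta I, which differ in an alternative last coding exon. Prkcb-202 encodes the 673 amino acids of the beta II end and Prkcb-201 the 671 of the beta I end, after 621 shared codons. Their coding ends on the plus strand of mm10 are shown because they are the part that tells the products apart. Capitals mark the bases that each does not share, at chr7:122627656-122627811 for Prkcb-202 and chr7:122633745-122633894 for Prkcb-201.
Prkcb-202: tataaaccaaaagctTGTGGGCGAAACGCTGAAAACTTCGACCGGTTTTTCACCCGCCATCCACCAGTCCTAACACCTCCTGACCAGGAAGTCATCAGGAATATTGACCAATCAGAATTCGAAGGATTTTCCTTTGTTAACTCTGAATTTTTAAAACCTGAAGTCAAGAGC
Prkcb-201: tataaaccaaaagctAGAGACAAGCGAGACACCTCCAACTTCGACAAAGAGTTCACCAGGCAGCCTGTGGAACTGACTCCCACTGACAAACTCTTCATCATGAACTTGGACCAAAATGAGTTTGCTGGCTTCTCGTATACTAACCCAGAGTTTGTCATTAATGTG

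The beta II transcript led in both libraries. Prkcb-202 had 71.59 and 75.89 TPM and Prkcb-201 had 0.98 and 1.19 TPM in the first program. The second program gave 60.2 and 60.1 TPM for Prkcb-202 and 0.94 and 1.00 TPM for Prkcb-201. The beta I end, however, lies inside another model. Prkcb-208, a single-exon retained-intron transcript of 955 bases, covers all 658 bases of the last exon of Prkcb-201 and none of Prkcb-202, and the first program gave it 43.70 and 35.05 TPM. The second gave it 41.5 and 31.8 TPM. The nonsense-mediated decay model Prkcb-205 holds 216 of the 1000 bases of the last exon of Prkcb-202. It also holds 655 of the 658 bases of that of Prkcb-201. The first program gave Prkcb-205 1.33 and 1.92 TPM. Reads over the beta I exon can be given to Prkcb-208, Prkcb-201 or Prkcb-205, so the level of beta I cannot be read from Prkcb-201 alone.

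Models that are not typed as protein coding carried 38.4% ± 1.80 of the TPM of Prkcz and 35.4% ± 4.196 of that of Prkcb (SD, n = 2 each). By expected reads the same models carried 9.93% of Prkcz and 15.3% of Prkcb. These 2 genes, of the 6 with at least 5 TPM, reached 30%. The background was 17.6% of 9219 protein-coding genes of at least 5 TPM, with a median of 2.25% of the TPM. With transcripts of a complete coding sequence only, Prkcb had 72.57 and 77.08 TPM, Prkce 49.05 and 49.99 TPM, and Prkcz 47.43 and 44.15 TPM. Prkce was then above Prkcz in both libraries. That order rests on leaving out Prkcz-209, which shares 718 of its 790 bases with both coding forms, so its reads could come from those.

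The TPM that the programs gave to the transcripts of Prkce differed between the libraries. Prkce-202 had 48.98 TPM in replicate 1 and 33.24 TPM in replicate 2. Prkce-201 had 0.07 and 16.75 TPM, and the retained-intron transcript Prkce-205 had 0.18 and 19.84 TPM. The second program gave 44.6 and 26.8 TPM for Prkce-202, 0.08 and 17.9 TPM for Prkce-201, and 5.83 and 24.6 TPM for Prkce-205. Prkce-201 was near 0 in replicate 1 and well above it in replicate 2 in both programs. Both programs assign reads of the same libraries, so they are not independent. Prkce-205 shares 471 of its 661 bases with each of the coding transcripts.

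The share of Prkce-202 in the TPM of the gene was 51.7 percentage points higher in replicate 1 than in replicate 2 in the first program and 49.6 points higher in the second. A change of 20 points or more in both programs, in the same direction, was seen in 85 of 8478 genes with at least 2 transcripts and at least 5 TPM in both libraries, or 1%. Prkce was the 1 member of 6 in that set to reach it. In the first program alone, 2.69% of these genes changed by 20 points or more and 0.106% by as much as Prkce. Both transcripts encode the same 737 amino acids from identical coding sequences. Prkce-201 has no base outside Prkce-202, only 1 more intron within its first exon and a last exon of 875 against 3379 bases, so apart from reads across that intron its reads could come from either model.

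The complete coding transcripts of Prkce summed to 49.05 TPM in replicate 1 and 49.99 TPM in replicate 2. The gene TPM of Prkce was lower in replicate 1, with a log2 ratio of TPM (replicate 1 over replicate 2, pseudocount 0.1) of -0.51, while its expected counts, 9124 in replicate 1 and 8207 in replicate 2, gave 0.16. The TPM and count ratios pointed opposite ways with a gap of at least 0.5 in 0.654% of 14078 genes compared. A gene model on the same strand, AC154542.1, shares 472 exon bases with Prkce and had 5 and 0 reads.

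**Figure D3:**
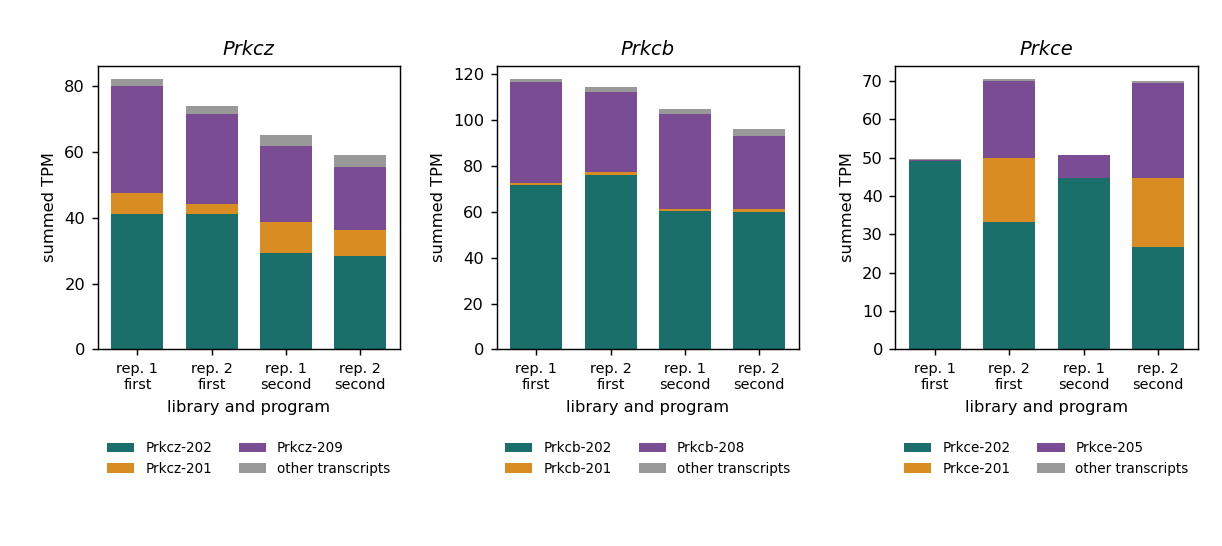
Summed TPM (vertical) of Prkcz, Prkcb and Prkce, split by transcript in colour, for replicate 1 and replicate 2 in the first program and then in the second (horizontal). In Prkcz and Prkcb the same 3 transcripts make up nearly all of each bar, while in Prkce the transcripts Prkce-201 and Prkce-205 are at 0.07 and 0.18 TPM in replicate 1 and at 16.75 and 19.84 TPM in replicate 2 of the first program.

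The other genes had 1 leading coding transcript each, and for all 8 genes the same transcript led in both programs and by expected counts. Prkca-201 (672 amino acids) had 16.79 and 19.65 TPM, with 4.96 and 2.52 TPM for the processed transcript Prkca-204. Prkca-203 was given 0.00 and 0.58 TPM by the first program, and 0.00 and 6.49 TPM by the second. Prkcd-207 (674 amino acids) had 17.95 and 16.61 TPM. Prkcd-201, which adds 26 amino acids, had 0.18 and 1.55 TPM.

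Prkci-201 (595 amino acids) had 7.38 and 8.78 TPM. The incomplete Prkci-203 was given 0.00 and 0.57 TPM by the first program, and 0.00 and 3.73 TPM by the second. Prkcq-201 (707 amino acids) had 4.29 and 2.83 TPM, all of the TPM of its gene. Prkch-201 (683 amino acids) had 1.00 and 1.23 TPM, and Prkch-204, a nonsense-mediated decay model, had 0.25 and 0.11 TPM in the second program and 0 in the first. The remaining 31 transcripts of the 7 genes other than Prkcz had at most 1.92 TPM in the first program and 2.90 TPM in the second, and 13 were at 0 in both programs. That count of 31 includes Prkcb-201, Prkcb-205 and Prkcd-201, named above after their values were seen. Of all 55 transcripts, the first program gave a TPM above 0 to 30 and the second to 40. The same count over all transcripts in the tables is not given here, so these counts cannot be called high or low.

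None of the 8 genes differed between the libraries by a log2 ratio of 1 or more in expected counts scaled by TMM factors. That size was reached by 339 of 14078 genes with a mean count of at least 50, or 2.41%, of which 278 were higher in replicate 1 (1.97%) and 61 lower (0.433%). The median absolute log2 ratio was 0.19 for the 8 genes and 0.16 for the genes compared. Intervals here are exact Clopper-Pearson 95% intervals and cover counting error only.

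Prkcq had the widest gap, with 449 reads in replicate 1 and 302 in replicate 2, a log2 ratio of 0.58 (0.37 to 0.79). A gap of that size or more was seen in 7.87% of the genes compared. Because Prkcq is known from T cells, their markers are given beside it. Cd3e had 1 and 3 reads, Cd3d 4 and 3, and Cd3g 5 and 5, and the list of 8 summed to 5.58 and 4.42 TPM. Lck, the 1 marker of that list with a mean count of at least 50, had 68 and 88 reads. Cd8a had 4 and 0 reads, Cd2 2 and 4, and Cd4 8 and 12. Trac had 62 and 32 reads, or 2.6 and 1.38 TPM of the sums above. Their part in the gap of Prkcq was not tested.

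Prkch, with 103 and 133 reads, had a log2 ratio of -0.36 (-0.75 to 0.02), an interval that includes 0. Prkci had 1025 and 1253 reads and a log2 ratio of -0.28 (-0.40 to -0.16). Prkca had 4349 and 5091 reads and -0.22 (-0.28 to -0.16). These 3 genes were lower in replicate 1 by counts, and for Prkci and Prkca by more than counting error. In TPM the log2 ratio of Prkca was -0.02.

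The other 4 were closer. Prkce stood at 0.16 (0.12 to 0.20) and Prkcz, with 6076 and 5861 reads, at 0.06 (0.01 to 0.11). Prkcb had 7297 and 7694 reads and -0.07 (-0.12 to -0.02), and Prkcd had 1456 and 1490 reads and -0.03 (-0.13 to 0.08). Thus 6 of the 8 intervals excluded 0, all for gaps smaller than the called size. For Prkcd, which is strongly expressed in the thalamus, the 10 thalamic markers summed to 161 TPM in replicate 1 and 130 TPM in replicate 2, of which Tcf7l2 alone had 95.92 and 58.6 TPM. Of the 9 markers with enough reads to be compared, 3 were higher in replicate 1, the median log2 ratio was -0.07 and none reached 1. These 9 were at 1 TPM or more in both libraries, and the other, Gbx2, had 0 reads in both. Their part in the level of Prkcd was not tested.

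**Figure D4:**
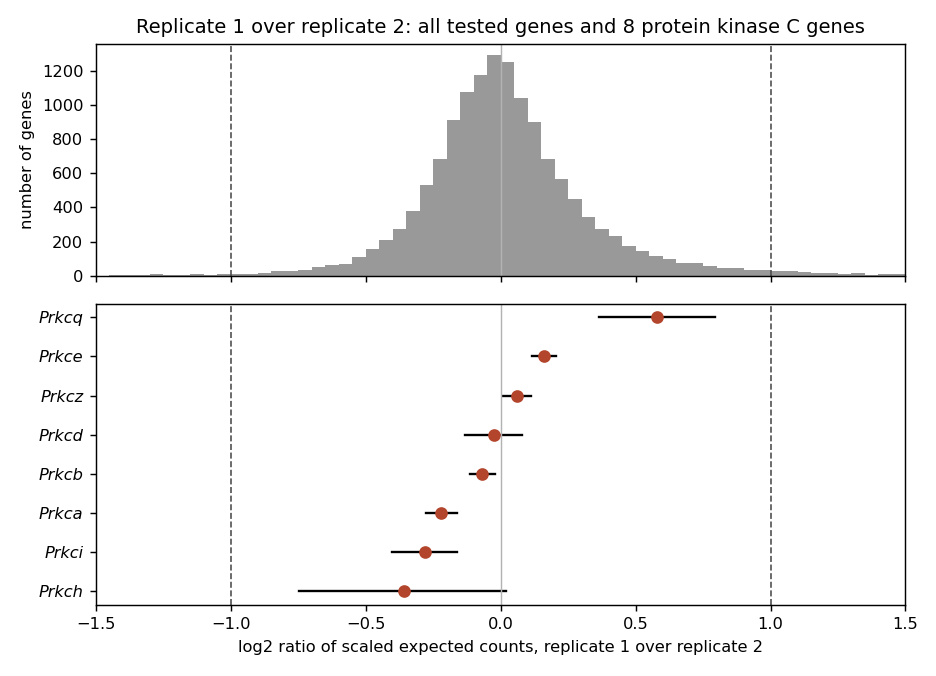
Top, number of genes (vertical) by log2 ratio of scaled expected counts, replicate 1 over replicate 2 (horizontal), for 14078 genes with a mean count of at least 50, drawn between -1.5 and 1.5. Bottom, the ratio (point) and its 95% counting interval (line) for each of the 8 genes; dashed lines mark -1 and 1, and every gene lies between them, from -0.36 for Prkch to 0.58 for Prkcq.

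The libraries did differ elsewhere. Replicate 1 held 38921662 expected reads and replicate 2 held 39499350. The coefficient of variation beyond counting error, usually called biological, was estimated at 16.6% over 16640 genes. It rests on these libraries alone, which may come from the same animal, so it may be technical. All 8 choroid plexus markers were past a log2 ratio of 1, higher in replicate 1, with summed levels of 15265 TPM in replicate 1 and 131 TPM in replicate 2, and so were 2 of 6 ependymal markers. Their part in the differences of the kinase genes, or of the genes around them given below, was not tested. All 15 markers of CA1, CA3 and dentate granule neurons were at 1 TPM or more in both libraries. Over all 55536 genes, that level was reached by 14397 in replicate 1 and 14235 in replicate 2.

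The genes around the kinases were given by 7 lists of 75 genes, of which 71 had enough reads to be compared. Of these, 2 (2.82%) were past a log2 ratio of 1, against 2.41% of all genes compared. Their median log2 ratio was -0.03, against -0.01 for all genes compared. Plce1, a phospholipase C, had 272 and 135 reads and a log2 ratio of 1.02. Llgl2, a polarity protein, had 115 and 57 reads and 1.01. Both were higher in replicate 1 by counts. In TPM, Plce1 had 1.01 in replicate 1 and 0.49 in replicate 2. Llgl2 had 3.49 and 3.01 TPM, a smaller gap than by counts.

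The lipid signal that opens the conventional and new kinases is made by phospholipase C and removed by diacylglycerol kinases. Of 14 listed phospholipase C genes, which include the phospholipase C-like genes Plcl1 and Plcl2, 13 were at 1 TPM or above in each library. Plcb1 led at 38.5 ± 2.84 TPM, Plcd4 at 15.3 ± 0.219 TPM and Plch2 at 13.7 ± 1.72 TPM (SD, n = 2 each), with Plce1 lowest at 0.750 ± 0.368 TPM. Of 10 diacylglycerol kinases, 9 were at 1 TPM or more. Dgkg had 96.2 ± 5.22 TPM, Dgkb 63.3 ± 1.48 TPM and Dgkz 26.5 ± 0.233 TPM, while Dgkk had 0.0800 ± 0.0283 TPM (SD, n = 2 each). Summed TPM of the diacylglycerol kinases was 226 and 231, against 111 and 114 for the 14 listed phospholipase C genes, Plcl1 and Plcl2 included.

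Other proteins that bind diacylglycerol were led by Chn1, which encodes the Rac-inactivating protein alpha-chimaerin, at 966 ± 13.5 TPM (SD, n = 2). Rasgrp1, an activator of Ras, had 128 ± 10.8 TPM and Chn2 had 24.0 ± 3.13 TPM, while Rasgrp4 was lowest at 0.235 ± 0.247 TPM (SD, n = 2 each). Among genes that prime, stabilise or dephosphorylate the kinases, the chaperone Hsp90aa1 had 636 ± 37.7 TPM and its partner Cdc37 130 ± 3.97 TPM. The phosphatase Phlpp2 was lowest at 3.07 ± 0.474 TPM (SD, n = 2 each). None of the genes compared in these 2 lists was past a log2 ratio of 1.

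A further list joined kinase anchors, not only those of the atypical kinases, with polarity partners of the atypical kinases. It was led by the GTPase Cdc42 at 370 ± 3.03 TPM, the scaffold Sqstm1 at 253 ± 17.4 TPM and the anchor Rack1 at 174 ± 4.09 TPM. The Par complex gene Pard6b was lowest at 0.410 ± 0.0283 TPM (SD, n = 2 each). Wwc1, which encodes KIBRA, a known binding partner of PKM-zeta, had 1869 and 1032 reads, which came to 14.12 TPM in replicate 1 and 7.65 TPM in replicate 2. Its log2 ratio was 0.86, short of the called size. It was chosen after its values were seen. The level of Prkcz-202 over the same libraries was 41.14 and 41.21 TPM. A relation between the 2 genes was not tested and cannot be read from 2 libraries.

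All 12 substrate genes were at 1 TPM or more in both libraries and none was past a log2 ratio of 1. Stmn1, a microtubule regulator, had 255 ± 21.02 TPM, the vesicle fusion ATPase Nsf 234 ± 0.438 TPM and the growth cone protein Gap43 170 ± 4.49 TPM. Ppp1r14c was lowest at 9.99 ± 0.926 TPM (SD, n = 2 each). Of the PKC-related kinases, Pkn2 had 6.25 ± 0.304 TPM and Pkn3 had 0.295 ± 0.0354 TPM (SD, n = 2 each).

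Some limits touch single genes. Parts of Prkci-201 matched transcripts of 584 other genes over at most 195 bases at 90% identity or more. For Prkch and Prkcq, the longest match to each other gene lay in a retained-intron model with no TPM in the first program. Shorter matches of their other transcripts were not examined. Prkca shares 30 exon bases on the opposite strand with Apoh, which had 20 and 19 reads, and the strand setting of the counting is not given in the sources used here.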

How the data were processed

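Per the file headers, the deposited tables of the first program hold expected counts (estimated reads, which need not be whole), TPM and FPKM per gene and transcript, in the column layout of RSEM, and those of the second hold estimated counts and TPM per transcript, in the column layout of kallisto. The authors' deposited lower and upper TPM bounds are a signal on the TPM scale. The assembly mm10 and annotation M21 are named in the text deposited beside the tables, and the sources used here do not name the programs or their versions. The 26345 gene-level rows without a mouse Ensembl gene identifier held 9 and 6 reads (2.31e-05% and 1.64e-05%) and stayed out. Counts were rounded and scaled by TMM (edgeR 4.0.16, R 4.3.3), with a prior count of 0.5. The members, lists and rules were chosen with earlier results of these data known. All members were named, every Prkcz transcript, other transcripts with at least 10% of the TPM of their gene, and of each list the 3 highest, the lowest and those past a log2 ratio of 1. A few of the listed genes are left unreported. Transcript similarity was searched with blastn. The between-library ratio was tested on simulated counts that carried counting error only. The split of reads between transcripts was taken as deposited. Other steps used Python 3.11.15 with pandas 2.3.3 and scipy 1.17.1. The alternatives were other scalings, count minimums, prior counts, pseudocounts, units, the second program, each library left out and, chosen after seeing the data, complete coding transcripts only.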

Additional observations from a re-analysis of the deposited data

How the results depend on the processing

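No member was past a log2 ratio of 1 under any scaling, count minimum, prior count, pseudocount or program tried. Over all genes, 907 were past it with a count minimum of 10, 6918 with none and 188 with TPM and a pseudocount of 1, against 339. With TPM and a pseudocount of 0.1, the log2 ratio of Prkce was -0.51, of Prkcb 0.05, of Prkca -0.02 and of Prkcz 0.15, against 0.16, -0.07, -0.22 and 0.06 by counts. With the second program's counts that of Prkcz was 0.0072. The cause was not tested.

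Under 3 other measures, some shares of the summed level of the 8 genes moved by more than the spread between the libraries. In the second program, they were 8.78% for Prkca, 5.34% for Prkcd, 3.33% for Prkci and 22.7% for Prkcz. By expected counts, which are not per length, they were 15.8% for Prkca, 25.02% for Prkcb, 4.92% for Prkcd, 28.9% for Prkce, 3.80% for Prkci and 19.9% for Prkcz. With complete coding transcripts only, they were 8.44% for Prkca, 34.1% for Prkcb, 8.26% for Prkcd, 0.507% for Prkch, 1.62% for Prkcq, 3.68% for Prkci and 20.9% for Prkcz. With 1 library left out, each share is that of the other library alone. It therefore could not move by more than that spread, and nothing is concluded from it. The values of the 2 libraries were 7.26% and 7.40% for Prkca, 36.4% and 38.9% for Prkcb, and 5.89% and 6.05% for Prkcd. They were 16.4% and 22.5% for Prkce, 0.330% and 0.402% for Prkch, and 0.904% and 1.42% for Prkcq. For Prkci they were 2.44% and 2.99%, and for Prkcz 23.6% and 27.1%.

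The short Prkcz share was 77.2% in the second program, 52.9% with all transcripts in the denominator, 90.5% with incomplete coding sequences sorted by length, 93.4% by expected counts and 86.7% to 93.3% with 1 library left out, against 90.04%. The leading transcript was the same for all 8 genes in both programs and by counts. The difference between the libraries has no value with 1 library left out. No paired analysis was possible because there is 1 group. At 2 libraries the precision is limited to the spread between them, and for Prkch to about 100 reads in each.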
